A study of Mus musculus with 6 samples.

Results

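The genes described here encode the nuclear-encoded parts of respiratory complexes II, III, IV and V and cytochrome c. They were chosen by symbol from the deposited tables, as all rows matching Sdha to Sdhd, Uqcr, Cox4 to Cox8 and Atp5 names, with Cyc1 and Cycs added. The rule used no expression value, but it was written with earlier results of these data known. The rule gave 49 of 21878 rows: 4 for complex II, 9 for complex III, 18 for complex IV, 15 for complex V, 1 for cytochrome c and 2 Atp5-named genes, Atp5s and Atp5sl, not counted here as subunits of the ATP synthase. RNA was sequenced from wild-type mouse bone marrow cells that were sorted as LT-HSCs (the long-term stem cells that sustain blood formation for life), with a gate negative for lineage antigens, CD34 and CD135 and positive for Kit and Sca1. Mice had been fed for 3 months either a control diet (CD, 3 libraries) or a serine/glycine-free diet (SGFD, 3 libraries). The labels do not say whether a library came from 1 animal or a pool, and they give no age, sex or strain beyond the shared background, so the spread behind each p-value is that between libraries and may be technical.

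The respiratory chain sits in the inner mitochondrial membrane. Complex II, succinate dehydrogenase, feeds electrons from the citrate cycle into ubiquinone, complex III passes them from ubiquinol to cytochrome c, and complex IV, cytochrome c oxidase, hands them to oxygen. Complex V, the ATP synthase, uses the proton gradient that complexes III and IV help to build. LT-HSCs are known for low reliance on respiration while dormant and for a switch towards it when they divide or differentiate. Several complex IV subunits exist as a common isoform and as a restricted one that is typical of muscle, lung or testis. The mitochondrially encoded subunits are not analysed here.

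Promoters are shown first for the genes whose contrast the results turn on. These are the 3 paralogs that encode the same mature c subunit of the ATP synthase ring, which changed by different amounts, and the members of complex II with the smallest and the largest change. Each sequence runs 5′ to 3′ along the gene's strand, from 250 bases before to 50 bases after an annotated start, from RefSeq on GRCm38.p6. Capitals mark matches, on either strand, to the core of the NRF1 motif (GCGCA and GCGC with 1 base of any kind between them) or to TCAAGGTCA (the ERRA motif); CCGGAAGT (ETS) and AAGATGGCG (YY1) were also searched and have no match in these 5, and no marked match overlaps another.
Atp5g1 (chr11:96075582-96075881, minus strand): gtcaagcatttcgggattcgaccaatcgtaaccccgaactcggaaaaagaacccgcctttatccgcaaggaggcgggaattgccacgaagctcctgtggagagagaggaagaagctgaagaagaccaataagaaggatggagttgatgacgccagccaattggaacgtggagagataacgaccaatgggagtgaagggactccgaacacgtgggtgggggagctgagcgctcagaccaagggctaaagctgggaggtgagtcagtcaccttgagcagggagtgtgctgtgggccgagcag
Atp5g2 (chr15:102670998-102671297, minus strand): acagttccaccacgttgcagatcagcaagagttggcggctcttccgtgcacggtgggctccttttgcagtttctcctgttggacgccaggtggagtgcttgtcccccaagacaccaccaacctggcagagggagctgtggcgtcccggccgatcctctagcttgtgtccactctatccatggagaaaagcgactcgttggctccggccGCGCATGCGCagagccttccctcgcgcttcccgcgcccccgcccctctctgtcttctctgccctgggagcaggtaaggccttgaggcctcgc
Atp5g3 (chr2:73911277-73911576, minus strand): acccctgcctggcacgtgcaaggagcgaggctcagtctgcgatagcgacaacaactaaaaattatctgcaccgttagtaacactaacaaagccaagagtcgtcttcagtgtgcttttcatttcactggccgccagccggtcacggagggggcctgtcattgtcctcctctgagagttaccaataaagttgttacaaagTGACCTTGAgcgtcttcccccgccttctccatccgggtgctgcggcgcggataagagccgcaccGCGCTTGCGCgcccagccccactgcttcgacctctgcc
Sdha (chr13:74350191-74350490, minus strand): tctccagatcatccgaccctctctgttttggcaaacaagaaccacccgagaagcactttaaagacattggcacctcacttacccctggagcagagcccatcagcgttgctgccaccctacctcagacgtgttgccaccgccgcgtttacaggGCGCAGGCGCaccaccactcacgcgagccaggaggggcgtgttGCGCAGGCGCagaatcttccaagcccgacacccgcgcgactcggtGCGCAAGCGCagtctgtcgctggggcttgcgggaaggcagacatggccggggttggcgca
Sdhd (chr9:50603800-50604099, minus strand): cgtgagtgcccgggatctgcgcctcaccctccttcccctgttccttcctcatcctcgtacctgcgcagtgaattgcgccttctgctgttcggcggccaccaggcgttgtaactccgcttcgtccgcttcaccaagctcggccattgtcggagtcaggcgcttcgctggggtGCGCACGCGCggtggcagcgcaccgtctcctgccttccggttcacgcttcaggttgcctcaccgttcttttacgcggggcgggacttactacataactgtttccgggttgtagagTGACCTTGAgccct
The Sdha promoter holds 3 NRF1 matches and the Atp5g1 promoter holds none of the 4 motifs. Of the 38 members with a promoter in that table, 10 had an NRF1 match (26.3%), against 5.19% of 27025 genes in the table and 12.7% of the 8615 of them that were tested here. ETS matches were in 4 members (10.5%), a share like that of the tested genes (10.1%, and 4.31% of all promoters). YY1 matches were in 3 (7.89%, against 4% of tested genes and 1.64% of all) and ERRA matches in 2, Sdhd and Atp5g3 (5.26%, against 0.313% and 0.466%). A match is a string of letters and was not tested for binding. The 10 tested members with an NRF1 match changed by a median of 0.36 (log2), and the 26 without one by 0.34.

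Most subunit genes were modestly higher with SGFD, in every complex, and those that did not pass were Sdha and 2 tissue isoforms of complex IV. Of the 49 rows, 46 reached at least 1 FPKM (fragments per length of gene and per depth of library) in at least 3 libraries and were tested. Among these 46, 41 were higher with SGFD and 1 was lower (limma on log2(FPKM + 1), Benjamini-Hochberg adjusted p under 0.05), while 17.7% of all 10620 genes tested were higher and 41.8% were lower. All 3 SGFD values lay above all 3 CD values for 41 of the 46, against 19.6% of all genes tested, and all 3 lay below for 1, against 45.5%. Cox4i2 passed the filter on low values through the SGFD libraries alone, so a rise is no result for it. Without it 40 of 45 were higher. Cox4i2 is counted both in the 41 called higher and in the 41 without overlap. The median log2 fold change of the 46 was 0.35, and that of all genes tested was -0.13. The 3 untested rows were Cox7b2 and Cox8b, listed at 0 in every library, and Cox8c, with 1 fragment in 1 CD library. Log2 fold changes are on the scale of FPKM + 1 and understate the change of low genes.

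**Figure D1:**
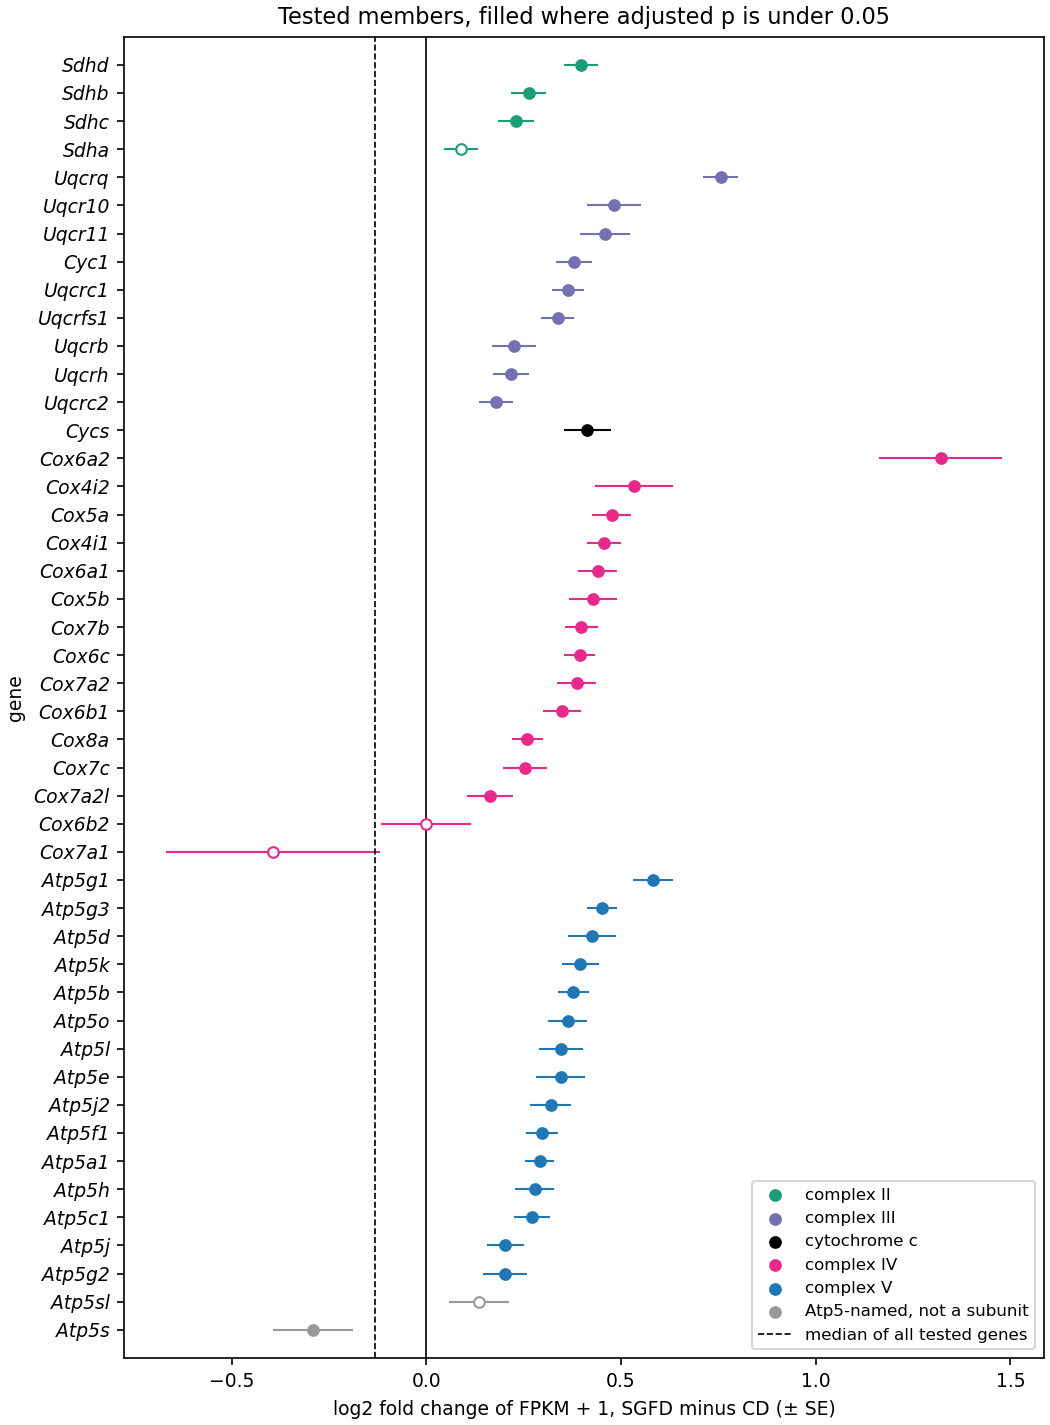
Log2 fold change of FPKM + 1, SGFD minus CD, with its standard error, for the 46 tested genes grouped by complex; filled points passed an adjusted p of 0.05 and the dashed line is the median of all genes tested, -0.13. The filled points of complexes II to V all lie to the right of 0, Cox6a2 is farthest to the right at 1.32, and Atp5s is the 1 filled point to the left.

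Libraries held between 18684130 and 19846935 fragments, recovered from the FPKM steps, and the 49 rows made up 1.56% to 1.58% of summed FPKM with CD and 1.76% to 1.85% with SGFD. Markers of granulocyte-monocyte progenitors moved in the same libraries: 6 of 7 tested were higher with SGFD, and their summed level went from 883 to 911 FPKM across CD libraries to 3459 to 3841 FPKM across SGFD libraries. Of 7 tested LT-HSC markers 6 were lower, their summed level going from between 149.6 and 153 FPKM to between 62.3 and 64.3 FPKM. Monocyte markers (6 of 6 higher, 64.9 to 65.9 FPKM with CD and 217 to 232 FPKM with SGFD) and mature neutrophil markers (5 of 5 tested higher, 11.4 to 11.7 and 34.6 to 38 FPKM) rose as well. The neutrophil markers Lcn2 and Camp passed the filter on low values through the SGFD libraries alone, so their calls carry no weight as support. Lcn2 had 0.187 to 0.428 FPKM with CD and 11.9 to 12.5 FPKM with SGFD, a large part of the rise in that sum. Erythroid markers (4 of 4 tested lower, 218 to 224 and 97.4 to 101 FPKM) went the other way. B cell markers were lower in 3 of 4 tested, at sums of 27.4 to 36.9 and 25.5 to 26.4 FPKM. Most of that sum was Cd79b, which overlapped between the diets (20.5 to 26.3 FPKM with CD, 23.7 to 24.4 FPKM with SGFD). Macrophage markers were lower too (4 of 4 tested, 8.08 to 9.7 and 1.1 to 1.62 FPKM). All 4 passed the filter on low values through the CD libraries alone, as did Cd79a and Igll1 among B cell markers. Calls of such genes carry no weight as support. All 4 genes of the gate were lower, among them Kit, from between 121 and 122 to between 69.1 and 73 FPKM. Both antigens that the gate excludes had abundant mRNA in every library, Cd34 at 419 to 488 FPKM and Flt3 (CD135) at 86.9 to 115 FPKM. In bulk samples, a change in the number of cells of a type and a change in RNA per cell cannot be told apart, and the part of these markers in the changes below was not tested.

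In complex II, 3 of 4 subunit genes rose, Sdhd most, and the catalytic flavoprotein gene Sdha did not pass. Sdhd, which encodes a membrane anchor, had 92.1, 92.3 and 89.4 FPKM in the CD libraries and 127, 116 and 119 FPKM in the SGFD libraries. The groups do not overlap, and its mean rose from 91.3 ± 1.59 to 121 ± 5.71 FPKM (SD, n = 3 each), a log2 fold change of 0.40 ± 0.04 (SE; limma, adjusted p = 4.94e-05). Sdhb, the iron-sulfur subunit gene, had 88.1, 88.6 and 82.3 FPKM in the CD libraries and 105, 99.7 and 107 FPKM in the SGFD libraries. Sdhc, the other membrane anchor gene, had 86.9, 90.5 and 87.7 FPKM in the CD libraries and 102, 99.6 and 110.0 FPKM in the SGFD libraries. Both rose without overlap between the diets, with log2 fold changes of 0.26 ± 0.05 and 0.23 ± 0.05. Sdha had 144, 145 and 143 FPKM in the CD libraries and 155, 145 and 161 FPKM in the SGFD libraries. Its SGFD values were the higher ones in each case, but the lowest of them exceeded the highest CD value by less than 1 FPKM, and its log2 fold change of 0.09 ± 0.04 did not pass (limma, adjusted p = 0.095). Without SGFD replicate 2, the library with the lowest SGFD value, Sdha passed at a log2 fold change of 0.13 (limma, adjusted p = 0.00881), and it was also called higher after median-ratio scaling (0.24, adjusted p = 0.00352), after centring by transcript length (0.15, 0.0178) or recovered length (0.17, 0.00951) and with array quality weights (0.10, 0.01). After quantile normalization its sign turned, to -0.05 (0.296).

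Complex III rose throughout: all 9 of its genes passed, with log2 fold changes from 0.18 to 0.76. Uqcrq, an accessory subunit on chromosome 11 from 53427922 to 53430831 in GRCm38, had 35.8, 37.4 and 35.5 FPKM in the CD libraries and 61.5, 60.3 and 63.9 FPKM in the SGFD libraries. This was the clearest separation among the 9, with the lowest SGFD value far above the highest CD value, and its mean went up 1.71-fold (log2 fold change 0.76 ± 0.04; limma, adjusted p = 7.47e-07). Uqcr10, another small accessory subunit, had 101, 116 and 110.2 FPKM in the CD libraries and 155, 138 and 167 FPKM in the SGFD libraries. Uqcr11, which also encodes an accessory subunit, had 114, 126 and 108 FPKM in the CD libraries and 165, 147 and 166 FPKM in the SGFD libraries. Both separated the diets fully, at log2 fold changes of 0.48 ± 0.07 and 0.46 ± 0.06.

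The catalytic genes of complex III lay in the middle of its range. Cyc1, which encodes cytochrome c1, had 105, 99.5 and 93.5 FPKM in the CD libraries and 129, 128 and 131 FPKM in the SGFD libraries, a log2 fold change of 0.38 ± 0.05. Uqcrfs1, the gene of the Rieske iron-sulfur protein, rose from 73.8 ± 1.87 to 93.5 ± 2.98 FPKM and the core protein gene Uqcrc1 rose from 131 ± 1 to 169 ± 6.89 FPKM (SD, n = 3 each). The other core protein gene changed least: Uqcrc2 had 105, 115 and 107 FPKM in the CD libraries and 124, 122 and 124 FPKM in the SGFD libraries, a log2 fold change of 0.18 ± 0.04. Uqcrh, the hinge protein gene, had 249.8, 233 and 236 FPKM in the CD libraries and 286, 263 and 287 FPKM in the SGFD libraries, at 0.22 ± 0.05, and Uqcrb was similar at 0.22 ± 0.06. These 3 genes did not pass after quantile normalization, which turned the sign of Uqcrh (log2 fold change -0.02). GENCODE names 2 pseudogenes after Uqcrh, and the sources used here do not say how reads shared with such copies were assigned.

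Cycs, the somatic cytochrome c gene that carries electrons from complex III to complex IV, had 21.1, 24.2 and 23.1 FPKM in the CD libraries and 29.8, 30.2 and 32 FPKM in the SGFD libraries. The diets did not overlap, and the log2 fold change was 0.41 ± 0.06 (limma, adjusted p = 0.000253). Its level per length was far below that of most subunit genes, at a CD mean that exceeded 68.3% of genes tested, whereas the CD mean of Atp5b exceeded 99.1%.

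Complex IV rose in all 11 genes that are not restricted isoforms, with log2 fold changes from 0.16 to 0.48. Cox4i1, the common isoform of the largest nuclear-encoded subunit and the most abundant complex IV mRNA here, had 391, 399 and 384 FPKM in the CD libraries and 532, 514 and 569 FPKM in the SGFD libraries. Cox5a, an accessory subunit gene, had 148, 156 and 157 FPKM in the CD libraries and 218, 199 and 226 FPKM in the SGFD libraries. Neither gene showed overlap between the diets, and their log2 fold changes were 0.46 ± 0.04 and 0.48 ± 0.05, the highest among the common subunits. Cox6a1, Cox5b, Cox7b, Cox6c, Cox7a2 and Cox6b1 followed between 0.35 and 0.44, and Cox8a and Cox7c lay lower at 0.26 ± 0.04 and 0.25 ± 0.06. Cox7a2l encodes a factor that joins complexes III and IV into supercomplexes rather than a core subunit. It had 199.6, 209 and 193 FPKM in the CD libraries and 223, 207 and 246 FPKM in the SGFD libraries. The highest CD value lay above the lowest SGFD value, the log2 fold change was 0.16 ± 0.06 and the call was marginal (limma, adjusted p = 0.0327). Leaving out CD replicate 1 (0.0821) or 3 (0.117), or SGFD replicate 1 (0.0729) or 3 (0.0947), ended that call, as did a block for the replicate number (0.0692) and 3 of 4 other scalings; the sign turned with quantile normalization (log2 fold change -0.11) and length centring on recovered lengths (-0.0034).

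The restricted isoforms of complex IV went different ways. Cox6a2, the heart and skeletal muscle isoform of subunit 6a, had 4.36, 5.72 and 3.14 FPKM in the CD libraries and 12, 10.6 and 14.4 FPKM in the SGFD libraries. These values rest on 55, 71 and 39 fragments with CD and 152, 140 and 179 with SGFD, the diets do not overlap, and the log2 fold change of 1.32 ± 0.16 exceeded that of every other tested member (limma, adjusted p = 7.82e-05). Cox6a2 lies on chromosome 7 from 128205435 to 128206366 in GRCm38, and its exons overlap exons of Itgad on the opposite strand, which had 0.183 to 0.39 FPKM across the 6 libraries. Cox4i2, the isoform typical of lung, had 0.616, 0.868 and 0.772 FPKM in the CD libraries and 1.56, 1.39 and 1.66 FPKM in the SGFD libraries. No CD library reached the filter on low values, so its call (log2 fold change 0.53 ± 0.10) carries no weight as support.

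Cox6b2 is known as the testis isoform of subunit 6b. It had 25.8, 22.8 and 28.1 FPKM in the CD libraries and 31.3, 24.3 and 21.6 FPKM in the SGFD libraries. The diets overlapped and the log2 fold change was 0.00 ± 0.12 (limma, adjusted p = 0.995), in contrast to its common partner Cox6b1, which rose from 245 ± 12.2 to 312 ± 14.8 FPKM. Cox7a1, the heart and muscle isoform of subunit 7a, had 2, 1.88 and 3.48 FPKM in the CD libraries and 0.853, 3.28 and 1.16 FPKM in the SGFD libraries, on 6 to 24 fragments per library. Those groups overlapped, and the log2 fold change of -0.39 ± 0.27 did not pass (limma, adjusted p = 0.234). Leaving out SGFD replicate 2, whose value was the highest SGFD value, gave a log2 fold change of -0.76 (limma, adjusted p = 0.00506).

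Muscle and testis markers were at or near 0, and lung markers were not examined. Over the 5 muscle markers Acta1, Ckm, Mb, Tnnt3 and Myh4 the summed level was 0.36 to 0.737 FPKM with CD and 0.428 to 0.841 FPKM with SGFD, with Myh4 at 0 in every library. The 4 testis markers summed to at most 0.341 FPKM, with Prm1 and Tnp1 at 0. Of the 3 brown fat markers Ucp1 was at 0 and Dio2 held nearly all of the sum, at 2.06 to 2.44 FPKM over the 6 libraries, without passing the test. The part of other cell types in these isoform values was not tested.

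As a share of summed FPKM in its pair, Cox6a2 went from 2.47% ± 0.625 with CD to 4.97% ± 0.563 with SGFD (SD, n = 3 each; exact permutation test, two-sided, p = 0.1, adjusted p = 0.14 over 7 shares). With 3 libraries against 3 this test cannot go below 0.1. Cox4i2 stayed a minor form, at 0.192% ± 0.0307 and 0.284% ± 0.0129 of Cox4i mRNA, and Cox6b2 went from 9.49% ± 1.31 to 7.63% ± 1.38 (exact permutation p = 0.2). Cox7a1 had 2.95% ± 1.18 and 1.64% ± 1.26 of the Cox7a1 and Cox7a2 sum (exact permutation p = 0.3). Cox8b, the muscle isoform of subunit 8, was listed at 0.

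**Figure D2:**
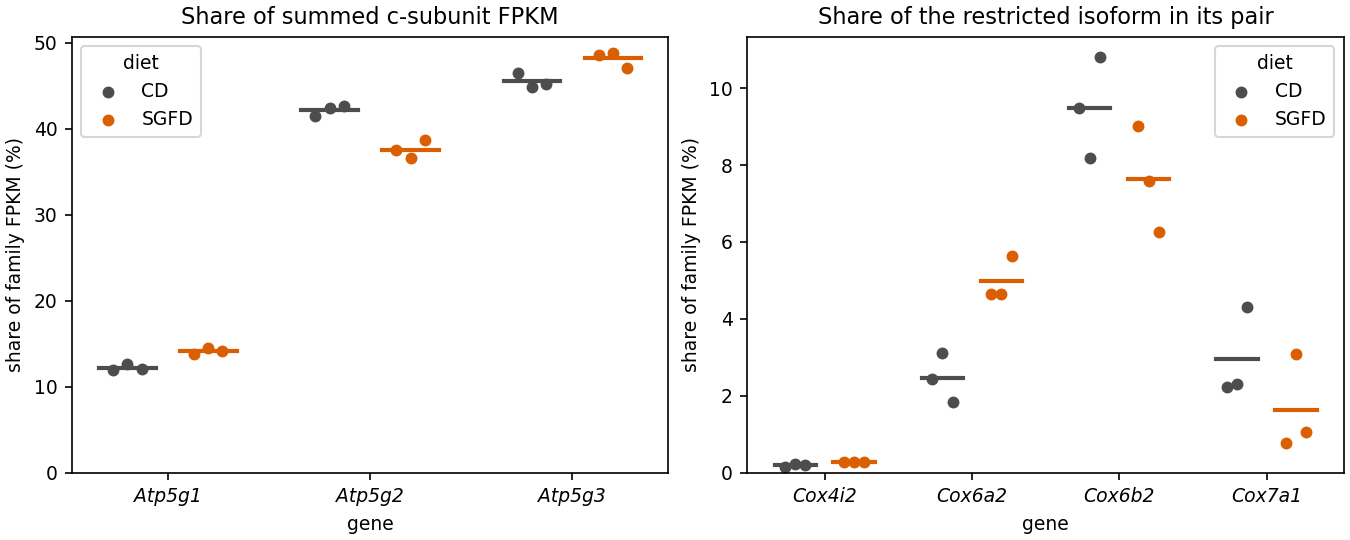
Share of each gene in the summed FPKM of its family (%), 1 point per library and a bar at the mean of each diet (n = 3). In the left panel the SGFD points of Atp5g2 lie below its CD points and those of Atp5g1 and Atp5g3 lie above; in the right panel Cox6a2 separates the diets, from 2.47% to 4.97% on average, while Cox6b2 and Cox7a1 overlap.

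All 15 subunit genes of complex V rose, with log2 fold changes from 0.20 to 0.58 and no overlap between the diets. Both ends of that range were held by genes of the membrane ring. Atp5g1, on chromosome 11 from 96072793 to 96075694 in GRCm38, had 58.8, 64.6 and 62.4 FPKM in the CD libraries and 89.1, 91.7 and 98.9 FPKM in the SGFD libraries. Atp5g3 had 229.6, 230.4 and 233 FPKM in the CD libraries and 312, 308 and 328 FPKM in the SGFD libraries. Atp5g2 had 205, 218 and 219.9 FPKM in the CD libraries and 241, 230.2 and 269 FPKM in the SGFD libraries. The paralogs share a mature product, but Atp5g1 rose by 0.58 ± 0.05 on the log2 scale, Atp5g3 by 0.45 ± 0.04 and Atp5g2 by 0.20 ± 0.06 (limma, adjusted p = 1.38e-05, 9.47e-06 and 0.0108). The call of Atp5g2 was lost without CD replicate 1 (limma, adjusted p = 0.0521) and its sign turned after quantile normalization (-0.04). Within the 3 genes, the share of Atp5g2 went from 42.2% ± 0.613 to 37.6% ± 1.05, that of Atp5g3 from 45.6% ± 0.866 to 48.2% ± 0.94 and that of Atp5g1 from 12.2% ± 0.349 to 14.2% ± 0.346 (SD, n = 3 each; exact permutation p = 0.1 for each, the smallest possible). These shares were computed from the values as deposited. After centring by transcript length the log2 fold changes of Atp5g1, Atp5g3 and Atp5g2 were 0.78, 0.32 and 0.07. With recovered lengths they were 0.41, 0.28 and 0.03. The part of scaling and gene length in these shares was not tested.

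The catalytic head of complex V was the most abundant part. Atp5b, which encodes the beta subunit that makes ATP, had 589, 601 and 593 FPKM in the CD libraries and 776, 739 and 804 FPKM in the SGFD libraries, and Atp5a1, which encodes the alpha subunit, had 410.2, 421 and 412 FPKM in the CD libraries and 509, 492 and 520.3 FPKM in the SGFD libraries. Their log2 fold changes were 0.38 ± 0.04 and 0.29 ± 0.04, and quantile normalization ended the call of Atp5a1 and turned its sign (-0.04). In the central stalk, Atp5d (delta) had 90.3, 94 and 91.5 FPKM in the CD libraries and 122, 113 and 137 FPKM in the SGFD libraries, at 0.43 ± 0.06, with Atp5e (epsilon) at 0.35 ± 0.06 and Atp5c1 (gamma) at 0.27 ± 0.05. The 4 peripheral stalk genes, which hold the head in place, had the lowest median of these groups, 0.29, against 0.45 for the ring and 0.35 for the 3 small membrane subunits. Atp5o, the stalk gene that changed most, rose from 186 ± 5.62 to 239.8 ± 15.6 FPKM, and Atp5j, the one that changed least, had 128, 129.7 and 135 FPKM in the CD libraries and 145, 147 and 161 FPKM in the SGFD libraries, at 0.20 ± 0.05. The small membrane subunit genes Atp5k, Atp5l and Atp5j2 rose by 0.40 ± 0.05, 0.35 ± 0.06 and 0.32 ± 0.05. GENCODE names pseudogenes after Atp5k, Atp5l and Atp5c1, as it does for Cycs.

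Atp5s and Atp5sl carry the Atp5 name and are not counted as subunits. Atp5s had 4.5, 6.13 and 5.06 FPKM in the CD libraries and 4.01, 4.37 and 3.82 FPKM in the SGFD libraries, which was the only tested member called lower (log2 fold change -0.29 ± 0.10; limma, adjusted p = 0.0313). Leaving out CD replicate 2 (0.132) or 3 (0.061), or SGFD replicate 1 (0.0782) or 3 (0.08), ended that call. Atp5sl, known to act in complex I assembly, had 16.9, 14.7 and 18.4 FPKM in the CD libraries and 18.4, 18.9 and 17.8 FPKM in the SGFD libraries and did not pass (log2 fold change 0.13 ± 0.08; limma, adjusted p = 0.15). It was called higher after median-ratio scaling (0.28, 0.00833), after quantile normalization (0.25, 0.0209) and without CD replicate 3 (0.21, 0.047).

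Set side by side, the median log2 fold change was 0.25 over the 4 genes of complex II, 0.36 over the 9 of complex III, 0.39 over the 15 tested of complex IV and 0.35 over the 15 of complex V. Summed FPKM rose from 410.1 ± 6.84 to 482 ± 18.6 for complex II, a ratio of 1.18, and from 1035 ± 12.5 to 1311 ± 52.8 for complex III, a ratio of 1.27 (SD, n = 3 each). For complex IV the sum went from 2155 ± 12 to 2783 ± 139, a ratio of 1.29, and for complex V from 3104 ± 48 to 3936 ± 190.4, again 1.27. In each complex the lowest SGFD library exceeded the highest CD library. Differences between the complexes are given without a test, since no score over these genes was tested.

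**Figure D3:**
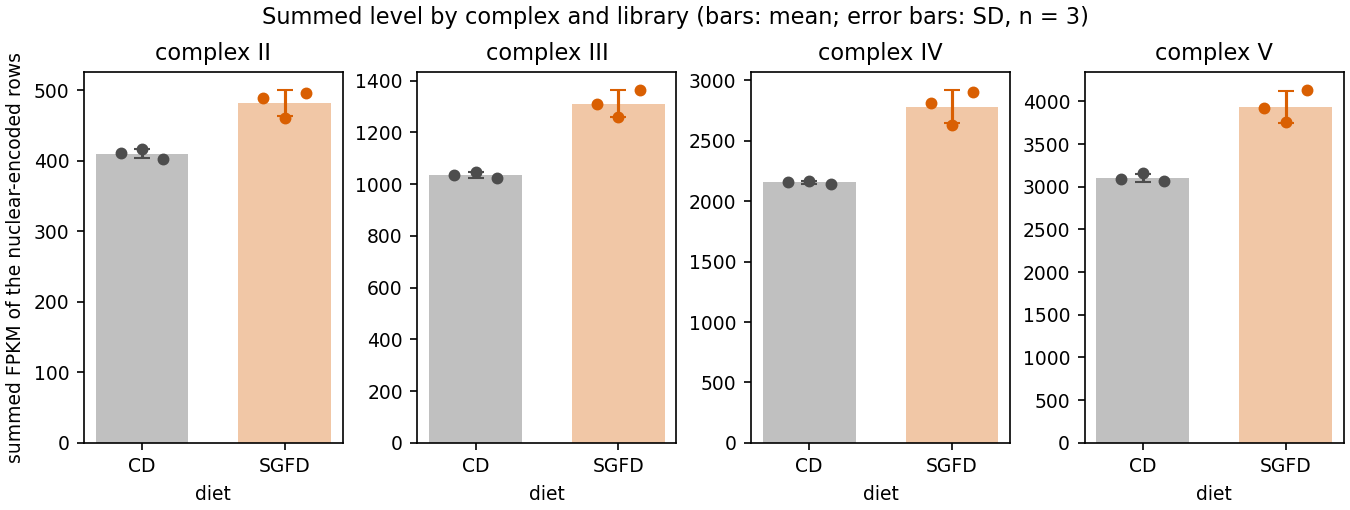
Summed FPKM of the nuclear-encoded rows of complexes II to V in each library, with bars at the mean of each diet and error bars of 1 SD (n = 3). All 3 SGFD points lie above all 3 CD points in each panel, and SGFD replicate 2, drawn in the middle of its group, is the lowest of its group in all 4.

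The size of these changes depended on how libraries were put on a common scale. The median of all genes tested was -0.13 as deposited, and 0.01 after median-ratio scaling, which left 43 of the 46 members higher (29.8% of all genes tested) at a median of 0.50 and moved the split of all called genes from 29.7% to 53.8% higher. Quantile normalization left 29 of 46 higher (21.3% of all genes tested), with a median of 0.15. Complex V fell back most, from 15 genes called higher to 9, and complexes II, III and IV had 2, 6 and 10. The counts of 43 and 29 include Cox4i2. Leaving aside Cox4i2, 26 of the 40 rises remained across all 4 other scalings, 1 in complex II (Sdhd), 6 in complex III, 9 in complex IV, 9 in complex V and Cycs. The same 26 kept their call under every other alternative run. How many of all genes called higher kept their call under the same settings was not counted.

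These genes are short, and shorter genes were higher with SGFD across the whole table. The length by which fragments were divided, recovered from the values, had a median of 826 bases over the 46 members and 3363 over all genes tested. All genes tested were put in 10 bins of equal size by this length. In the shortest bin (median 926 bases) the median log2 fold change was 0.17 and 47.7% were called higher; in the longest bin (median 9601 bases) it was -0.39 and 2.64% were. The shortest bin held 30 members, of which 28 were higher with a median of 0.36. The next bin held 6, all higher, where 31.9% of all its genes were. Their median was 0.38, against 0.05 for all genes of that bin. With log2 values centred within bins of transcript length in each library, 36 of 46 were higher (24.9% of all genes tested) with a median of 0.28. With recovered lengths in their place 33 were higher (23.6%), with a median of 0.23. The counts of 36 and 33 include Cox4i2. The genes that lost their call under at least 1 of these centrings were Atp5g2, Atp5j, Cox7a2l, Cox7c, Cox8a, Sdhb, Sdhc, Uqcrb and Uqcrh. Transcript length was that of the longest annotated transcript. For some members it was far from the recovered length, at 6310 against 517 bases for Atp5l and 733 against 2218 for Cox4i2. Atp5l changed by 0.63 (log2) after centring by transcript length and by 0.18 with recovered lengths.

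**Figure D4:**
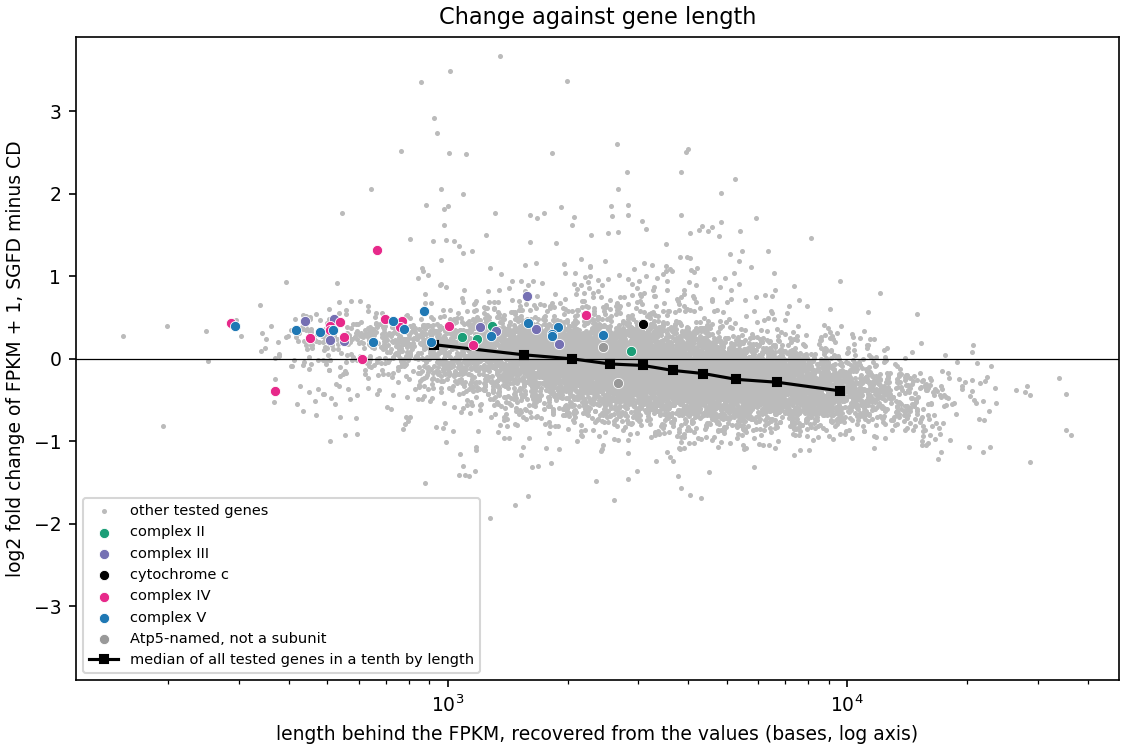
Log2 fold change of FPKM + 1, SGFD minus CD, against the length behind the FPKM (bases, log axis) for all 10620 genes tested, with members coloured by complex and black squares at the median of each of 10 bins by length. The squares fall from 0.17 to -0.39, and most coloured points sit at the short end above the squares.

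Genes that assemble the complexes were called higher about as often as genes in general. Of 39 tested assembly factors and related genes in the lists for complexes II, III, IV and V, 7 were called higher and 3 lower, where 17.7% and 41.8% of all genes tested were; their median was 0.01 on the log2 scale. The difference from the subunits was not tested, and it depended on the scaling: after quantile normalization the median was 0.13, beside 0.15 for the 46 members. None of the 4 complex II factors (Sdhaf1 to Sdhaf4) passed. Among 6 complex III factors 2 rose and 1 fell. Uqcc3 had 35.8, 37 and 34.5 FPKM in the CD libraries and 43.9, 40.5 and 43.2 FPKM in the SGFD libraries. Uqcc2 had 50.1, 62.8 and 58 FPKM in the CD libraries and 76.8, 62.4 and 82.2 FPKM in the SGFD libraries. The diets overlapped for Uqcc2 alone of these. Both rose, by 0.24 ± 0.05 and 0.36 ± 0.10 on the log2 scale, and neither passed after centring by transcript length (limma, adjusted p = 0.0746 and 0.059). Ttc19, which clears fragments of the Rieske protein from complex III, had 3.57, 2.45 and 3.45 FPKM in the CD libraries and 2.29, 2.23 and 2.16 FPKM in the SGFD libraries. Its fall did not pass without CD replicate 1 (0.0891) or CD replicate 3 (0.0808), nor under any of the 4 other scalings (limma, adjusted p from 0.0847 to 0.575). Of 25 tested complex IV factors 4 rose and 2 fell. Cox10, which makes a precursor of the heme A of complex IV, had 9.33, 9.64 and 9.26 FPKM in the CD libraries and 12.4, 11.2 and 11.7 FPKM in the SGFD libraries. Its SGFD values were the higher ones, it rose by 0.29 ± 0.06, and its call held under every alternative run. Surf1, another factor of heme insertion, had 22.7, 18.3 and 21.3 FPKM in the CD libraries and 24, 23.5 and 24.6 FPKM in the SGFD libraries, and its rise did not pass without CD replicate 2 (limma, adjusted p = 0.115), SGFD replicate 1 (0.0684) or SGFD replicate 3 (0.0681). Cox11, a copper delivery factor, had 6.96, 6.48 and 6.18 FPKM in the CD libraries and 4.54, 5.73 and 5.34 FPKM in the SGFD libraries, and its fall did not pass without CD replicate 1 (0.077) or SGFD replicate 1 (0.0789). Coa4 had 5.77, 6 and 6.92 FPKM in the CD libraries and 4.22, 5.56 and 5.05 FPKM in the SGFD libraries, and its fall did not pass without CD replicate 2 (0.052), CD replicate 3 (0.128) or SGFD replicate 1 (0.126). Cox11 and Coa4 also did not pass after median-ratio scaling or quantile normalization, nor did Surf1 after either length centring. Cox17 and Pet100, named after their values were seen to complete the count, also rose, by 0.15 ± 0.05 and 0.30 ± 0.11.

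Atpif1, the inhibitor that stops the ATP synthase from running in reverse, had 91.9, 90.3 and 88.5 FPKM in the CD libraries and 124, 117 and 131 FPKM in the SGFD libraries, and its log2 fold change of 0.45 ± 0.05 stood near that of the complex V subunits (limma, adjusted p = 3.59e-05). The assembly factors Atpaf1, Atpaf2 and Tmem70 of the same complex did not pass, nor did Hccs, which attaches heme to cytochrome c. After median-ratio scaling 13 of the 39 assembly factors rose and 0 fell (29.8% of all genes tested were higher there), and after quantile normalization 14 rose and 0 fell (21.3%). Without CD replicate 2, 4 of the 39 rose, where 1697 of all 10620 genes tested were higher. Without CD replicate 1, CD replicate 3 or SGFD replicate 1, 1 fell. In those settings 3756, 3792 and 3926 of all 10620 genes tested were lower.

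A few subunits carry names outside the pattern. Usmg5, a small membrane subunit of the ATP synthase, had 125, 144 and 149 FPKM in the CD libraries and 172, 183 and 164 FPKM in the SGFD libraries. The gene listed as 2010107E04Rik, another such subunit, had 83.4, 85 and 83.2 FPKM in the CD libraries and 128, 107 and 124 FPKM in the SGFD libraries. Both rose without overlap, by 0.31 ± 0.06 and 0.50 ± 0.06 on the log2 scale. The call of Usmg5 was lost after quantile normalization (limma, adjusted p = 0.0707) and after centring by recovered length (0.133). Ndufa4, now counted as a complex IV subunit, had 368, 361 and 326 FPKM in the CD libraries and 337, 325 and 370.5 FPKM in the SGFD libraries, which overlapped (log2 fold change -0.03 ± 0.06; limma, adjusted p = 0.663). Quantile normalization called Ndufa4 lower (-0.30), as did centring by transcript length (-0.17) and by recovered length (-0.20). Median-ratio scaling turned its sign (0.12) without a call.

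Regulators of respiratory genes were lower or did not pass. Of 18 tested, 11 were lower and 0 higher (limma, also 0 higher at an unadjusted p under 0.05). Their median was -0.27 on the log2 scale, beside -0.13 for all genes tested, of which 41.8% were lower. Gabpb2, a partner of the factor GABPA, had 18.4, 17.3 and 18.4 FPKM in the CD libraries and 13, 15.1 and 12.8 FPKM in the SGFD libraries. Polg, the mitochondrial DNA polymerase gene, had 14, 12.4 and 13.8 FPKM in the CD libraries and 10.2, 10.6 and 9.43 FPKM in the SGFD libraries. Hcfc1, a coactivator gene, had 43.6, 46.6 and 45.1 FPKM in the CD libraries and 37.4, 39.4 and 36.2 FPKM in the SGFD libraries. These 3 had the smallest p of the list, separated the diets and fell, with log2 fold changes of -0.38 ± 0.07, -0.38 ± 0.07 and -0.25 ± 0.05. Tfam, which packages mitochondrial DNA and helps to start its transcription, had 20.6, 20.1 and 19.7 FPKM in the CD libraries and 18.7, 17 and 18.4 FPKM in the SGFD libraries. Its fall was slight, at -0.15 ± 0.06 (limma, adjusted p = 0.0448), and did not pass after median-ratio scaling (0.978) or when the replicate number entered as a block (0.0774). That call was also lost without CD replicate 1 (0.139), CD replicate 2 (0.0971), CD replicate 3 (0.0757) or SGFD replicate 2 (0.11).

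The genes of the factors whose motifs were searched did not pass. Nrf1 had 5.77, 6.36 and 6.15 FPKM in the CD libraries and 5.27, 5.4 and 5.35 FPKM in the SGFD libraries, at a log2 fold change of -0.16 ± 0.07, and was called higher after centring by recovered length (0.23) and lower without a variance trend or with array quality weights. Gabpa had 18.6, 18.2 and 19 FPKM in the CD libraries and 18, 19.2 and 16.6 FPKM in the SGFD libraries, at -0.05 ± 0.06, and was called higher after either centring (0.15 and 0.19). Esrra had 11.2, 9.36 and 11.7 FPKM in the CD libraries and 13.2, 10.5 and 13.3 FPKM in the SGFD libraries, at 0.18 ± 0.10. It was called higher without SGFD replicate 2 (limma, adjusted p = 0.021) and after median-ratio scaling (0.0253). The same call came after quantile normalization (0.0248) and with array quality weights (0.015). Among genes of the PGC-1 coactivator family, Ppargc1b had 1.44, 1.48 and 1.78 FPKM in the CD libraries and 1.13, 1.37 and 1.16 FPKM in the SGFD libraries and did not pass (-0.21 ± 0.10), but was called lower without a variance trend (limma, adjusted p = 0.0387) or with array quality weights (0.0164). Pprc1, named after its values were seen, had 14.4, 14.7 and 16.6 FPKM in the CD libraries and 10.9, 12.5 and 10.1 FPKM in the SGFD libraries, and its fall of -0.42 ± 0.09 exceeded that of any other tested regulator (limma, adjusted p = 0.00196). Ppargc1a was below the filter, at 0.143 to 0.198 FPKM with CD and 0.0175 to 0.0464 FPKM with SGFD. The count of lower genes was 3 after median-ratio scaling (25.6% of all genes tested were lower there) and 5 after quantile normalization (24%). It was 3 after centring by transcript length (23.2%) and 5 after centring by recovered length (22.4%), and 1 to 3 genes were higher under these 4 scalings. Centring turned the sign of Hcfc1 (0.13 and 0.14) and of Gabpb2 (0.0038 and 0.0083).

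A list of 18 structural and transport genes of the mitochondrion was mostly higher as well. Of these genes of outer membrane channels, import machinery, cristae, chaperones and carriers, 15 were higher and 0 lower (limma, also 0 lower at an unadjusted p under 0.05), where 17.7% of all genes tested were higher and 41.8% lower; the median was 0.27 on the log2 scale. Slc25a5, the ADP/ATP carrier that exports the ATP made by complex V, had 427, 443 and 425 FPKM in the CD libraries and 645, 633 and 693 FPKM in the SGFD libraries. Phb2, a prohibitin gene, had 157, 153 and 155 FPKM in the CD libraries and 217, 209 and 229.7 FPKM in the SGFD libraries. Slc25a3, the phosphate carrier gene, had 274, 274 and 263 FPKM in the CD libraries and 337, 339 and 344 FPKM in the SGFD libraries. All 3 separated the diets, with log2 fold changes of 0.60 ± 0.04, 0.49 ± 0.04 and 0.33 ± 0.04. Timm44, Opa1 and the channel gene Vdac3 did not pass. Quantile normalization left 11 of the 18 higher (21.3% of all genes tested) and 1 lower.

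**Figure D5:**
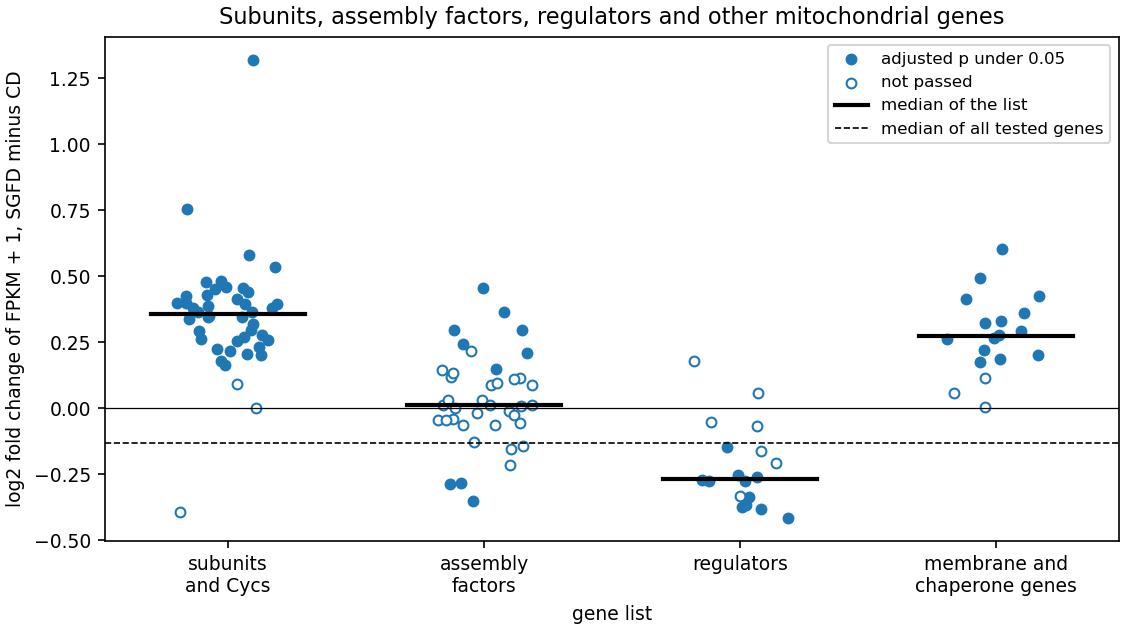
Log2 fold change of FPKM + 1, SGFD minus CD, for the tested subunit genes with Cycs, assembly factors, regulators and other mitochondrial genes; each point is a gene, filled where adjusted p was under 0.05, with a bar at the list's median. The medians are 0.36, 0.01, -0.27 and 0.27, and the dashed line marks -0.13, the median of all genes tested.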

How the data were processed

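RNA-seq of sorted bone marrow LT-HSCs was deposited as 1 table per library, 3 with CD and 3 with SGFD. The authors' values are taken as FPKM, inferred from the deposited values: all 15509 genes above 0 gave whole fragments within 0.02, and none of 200 perturbed genes did. The smallest whole numbers in the ratio of a gene's values were taken as its fragments, so the true fragments may be a multiple of them, and its recovered length follows from them. The submitters' processing notes name fastp, HISAT2, StringTie, GRCm38 and mm10; versions, annotation and strand setting are not given in the sources used here. The library kit was stranded, per the labels' protocols; exons of 12 members overlap a gene on the opposite strand.

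Each gene that reached 1 FPKM in 3 or more libraries was tested with limma 3.58.1 (R 4.3.3) on log2(FPKM + 1) (trend and robust empirical Bayes, two-sided, adjusted over all 10620 genes, threshold 0.05); the fit was tested on simulated data. Isoform shares used an exact permutation test. Members and lists were chosen with earlier results of these data known. Named genes are the 3 highest and 2 lowest of each complex, members that did not pass or fell, isoforms, c-ring genes, Cyc1 and Cycs, up to 3 genes per list by smallest p, list genes that passed against the direction of most, and Tfam, Nrf1, Gabpa, Esrra, Ppargc1a, Ppargc1b and Atpif1; Cox17, Pet100 and Pprc1 were added after their values were seen. Coordinates are RefSeq GRCm38.p6; lengths came from GENCODE M21 for 99.2% of genes tested. Alternatives were filters, a pseudocount of 0.1, 4 scalings (centring by recovered length was added after seeing the data), variance and weight models, the replicate block and leaving out each library.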

Additional observations from a re-analysis of the deposited data

How the results depend on the processing

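Of the 41 rises, 39 remained whichever single library was left out and 26 remained under all 16 alternatives. Cox7a2l and Atp5g2 were the 2 lost to a left-out library. Cox4i2, for which a rise is no result, is counted in the 41 and the 39 but not in the 26. It was not tested with the filter of 5 FPKM. The matching share over all genes called higher was not counted. The cause of the differences below was not tested. All genes called higher came to 3163 after median-ratio scaling, and those called lower came to 2721 after median-ratio scaling, 2552 after quantile normalization and 2464 or 2375 after centring by transcript or recovered length, against 1875 higher and 4438 lower as deposited. Complex V had 9 of 15 higher after quantile normalization. The 1 member called lower became 0 without a filter, with the filter of 5 FPKM, after median-ratio scaling, quantile normalization and centring by recovered length, 2 with array quality weights, and 0 to 2 with a library left out. The values in brackets that follow are over all genes tested. Assembly factors called higher numbered 4 without a filter (1862 of 15509). They numbered 13 and 14 after median-ratio scaling and quantile normalization (29.8% and 21.3%) and 4 after either centring (24.9% and 23.6%). They numbered 4 without a variance trend (1689 of 10620) and 12 with array quality weights (2265 of 10620). Those lower were 0, 0 and 8 after median-ratio scaling, quantile normalization and weights (25.6%, 24% and 5151 of 10620). With a library left out, 4 to 9 assembly factors were higher (1603 to 1962 of 10620) and 1 to 4 lower (3756 to 4605 of 10620). Regulators called higher were 2, 1, 3, 3 and 1 (median-ratio, quantile, the centrings, weights) and 0 to 1 with a library left out. Those lower were 3, 5, 3 and 5 under the scalings. The values over all genes tested in these settings are given above. Of the other mitochondrial genes 1 was lower after quantile normalization.

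Signs turned, without a call unless said, as follows. Quantile normalization turned Atp5a1 (-0.0368), Atp5g2 (-0.0362), Cox7a2l (-0.108), Sdha (-0.0493), Uqcrh (-0.0225), Cox6b2 (0.0517), Gabpa (0.0539), Nrf1 (0.0726) and Ppargc1b (0.0463). Centring by transcript length turned Gabpa (0.151, called), Gabpb2 (0.0038), Hcfc1 (0.133, called), Nrf1 (0.00765), Polg (0.0104) and Tfam (0.0218), and centring by recovered length turned Cox7a2l (-0.00341), Gabpa (0.192, called), Gabpb2 (0.00826), Hcfc1 (0.137, called), Nrf1 (0.229, called) and Ppargc1b (0.183). Median-ratio scaling turned Cox6b2 (0.146), Gabpa (0.093) and Ndufa4 (0.121), and weights turned Cox6b2 (0.198). With a library left out, Cox6b2 ranged from -0.146 to 0.111, Gabpa from -0.101 to 0.000588 and Ndufa4 from -0.0852 to 0.00916.

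Equal replicate numbers did not pair the libraries: the correlations of deviations from the diet means were -0.00677, -0.227 and -0.133 for numbers 1, 2 and 3. With the replicate block 40 members were higher, Cox4i2 among them, and 1 lower, with Cox7a2l lost. No library correlated best with the library of its own number.

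Depth limits the low isoforms: Cox7a1 rests on 6 to 24 fragments and Cox4i2 on 26 to 69 per library. No interval for counting error was computed from these counts.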

Other observations

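SGFD replicate 2 had the lowest SGFD value in 34 of the 46 tested members and SGFD replicate 3 the highest in 35. The members' median log2 fold change was 0.39 without SGFD replicate 2 and 0.32 without SGFD replicate 3, against 0.35 with all libraries.

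Levels per length differed widely between subunits of 1 complex. In the CD libraries Atp5b had a mean of 594 FPKM and Atp5g1 62 FPKM within complex V, and in complex III Uqcrh had 239 FPKM and Uqcrq 36.2 FPKM. Cox6b2, named for testis, was at 21.6 to 31.3 FPKM in all 6 libraries, on 248 to 365 fragments each.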
